A study of Caenorhabditis elegans with 12 samples.

Results

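The worm mitochondrial genome was followed through all 12 RNA sequencing libraries of vIPR, a method that crosslinks living *C. elegans* and captures a chosen transcript with biotinylated DNA probes. Its members are every entry that the deposited tables place on the chromosome MtDNA. They come to 36 of the 46748 worm genes in the tables, of which 12 code for proteins, 2 are ribosomal RNAs and 22 are transfer RNAs. All 36 lie on the plus strand and have the same coordinates in the Ensembl annotation of WBcel235 that was read here. The mitochondrial genome was not an object of the study, and none of the probe sets was directed at it.

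The mitochondrial genome of *C. elegans* is a small circular DNA that codes for part of the respiratory chain and for the ribosomal and transfer RNAs that translate it. A dedicated RNA polymerase transcribes it inside the organelle, and mitochondrial ribosomes translate its mRNAs there. Most subunits of the respiratory complexes are instead encoded in the nucleus, translated in the cytosol and imported. Complex I takes electrons from NADH, complex III passes them to cytochrome *c*, complex IV hands them to oxygen, and the ATP synthase uses the resulting proton gradient.

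Synchronized young adult worms of 3 strains were sequenced with 1 library per condition. BS1080 carries a *gld-1::gfp* transgene beside endogenous *gld-1*, DG3913 carries *gfp::lin-41* in place of *lin-41*, and N2 is the wild type. Of BS1080 there were total RNA extracted directly from worms that the labels give as not crosslinked, an input (lysate before capture) and an elution of PAR-XL (4-thiouridine labelling followed by long-wave UV), an elution of PFA-XL (paraformaldehyde), and an input and an elution of cXL (short-wave UV without 4-thiouridine). DG3913 gave an input and an elution of cXL. Probes against *gfp* were used in BS1080 and DG3913. N2 gave 1 cXL input and 3 cXL elutions, with probes for *gld-1*, *lin-41* or *alg-1*, so these 3 pulldowns share their input. For PAR-XL, the sequenced input belongs to another pulldown than the elution. PAR-XL worms were labelled in liquid culture, and cXL worms were grown unlabelled on plates. The paper gives a longer typical time to harvest for labelled than for unlabelled worms. Crosslinking, culture, labelling and time to harvest therefore cannot be told apart. Whole worms were lysed, and more mitochondria, more cells of a tissue and more RNA per cell cannot be told apart in such bulk samples.

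Levels are given as TPM, a length-corrected share of all transcripts, rescaled here to 1000000 over all worm entries except those annotated as ribosomal RNA. Estimated counts over the same entries ran from 282487 in the N2 *alg-1* elution to 26861047 in the PAR-XL input, and those of the 12 mitochondrial mRNAs from 1358 to 333563 in the same libraries. In the elutions the captured transcript took 17.6% to 59.0% of the worm TPM, and 3 entries overlapping ribosomal RNA took a further 7.30% to 16.4%, against 0.0671% to 1.24% in the total RNA and the inputs. These RNAs lower the TPM of every other gene in an elution. Pairs of libraries were therefore also compared through the relative ratio, the TPM ratio of a gene divided by the median ratio of all genes tested in that pair, and a gene is called where it stands at least 2-fold from this median gene. Genes tested are those expected to hold at least 10 counts in both libraries. Counts of called members are out of all 12, so they can include members with too few counts to be tested, and where they do, the number among tested members follows. With 1 library per condition there is no replicate error and no p-value. Intervals are at 95% and cover counting error only, as PCR copies of a molecule were not marked by identifiers.

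The 12 mitochondrial mRNAs differed in level over orders of magnitude within a library. *COX1* (WBGene00010964, MtDNA 7827 to 9428), the catalytic subunit of complex IV, had 3591 TPM in total RNA, 3231 in the PAR-XL input, and 1444, 2347 and 1512 in the cXL inputs of BS1080, DG3913 and N2. In the elutions it had 13264 TPM with PAR-XL, 6780 with PFA-XL, 2649 and 1757 with cXL in BS1080 and DG3913, and 2608, 1728 and 3423 with probes for *gld-1*, *lin-41* or *alg-1* in N2. Its levels with PAR-XL and PFA-XL stood above all other libraries. Of the other 5 elutions, that with *alg-1* probes was above every input but below total RNA, and the rest lay within the range of the inputs. *COX1* had the highest level of the 12 in 10 libraries. In total RNA and the PAR-XL input *COX3* (WBGene00010962, MtDNA 5678 to 6449), another core subunit of complex IV, was higher, with 5150 and 3946 TPM.

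*COX3* had 899, 1846 and 873 TPM in the cXL inputs of BS1080, DG3913 and N2, and between 1216 and 8549 TPM in the elutions, with a median of 2058. *COX2* (WBGene00010965, MtDNA 9649 to 10348), which receives electrons from cytochrome *c*, spanned 879 to 1986 TPM in the 4 inputs and 1033 to 3784 in the 7 elutions. *CYTB* (WBGene00000829, MtDNA 4504 to 5621), cytochrome *b* of complex III, spanned 801 to 2152 TPM in the inputs and 810 to 6018 in the elutions. *COX1*, *COX2*, *COX3* and *CYTB* were thus among the highest mRNAs of the worm: *COX1* ranked between 19 and 122 among all worm genes in the total RNA and inputs, and between 3 and 18 in the elutions. *ATP6* (WBGene00010960, MtDNA 2634 to 3235), a membrane subunit of the ATP synthase, had 642 to 1156 TPM in the inputs and 209 to 2743 in the elutions.

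The 7 genes of complex I were lower and spread further. *ND1* (WBGene00010959, MtDNA 1763 to 2635) had between 226 and 815 TPM in the inputs, *ND5* (WBGene00010967, MtDNA 11691 to 13272) between 228 and 449, and *ND4* (WBGene00010963, MtDNA 6506 to 7808) between 184 and 570. All 3 code for membrane subunits of complex I. *ND2* (WBGene00010961, MtDNA 3389 to 4269) stood far below them although it has nearly the length of *ND1*, with 29.4 TPM in total RNA, and with 6.49 to 22.4 TPM in the inputs and 0 to 75 estimated counts in the elutions. Its entry begins inside the transfer RNA MTCE.15 (MtDNA 3362 to 3416), so reads of that stretch cannot be assigned to either gene with certainty, and neighbouring mitochondrial entries such as *ND1* and *ATP6* also share bases.

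The 3 shortest mRNAs rested on few reads. *ND6* (WBGene00010957, MtDNA 113 to 549) had 62 to 291 counts in the inputs and 1 to 14 in the elutions. *ND3* (WBGene00010966, MtDNA 11356 to 11691) had 347, 135, 57 and 3 counts in the inputs of BS1080 with PAR-XL, BS1080 with cXL, DG3913 and N2, and 0 to 53 in the elutions. *ND4L* (WBGene00010958, MtDNA 549 to 783) had 30 counts in total RNA, 16 in the PAR-XL input and 0 in the other 10 libraries. All 3 code for membrane subunits of complex I. The TPM of such short entries depends strongly on the fragment length that the authors set for each library, which the effective lengths put between 151 and 374 bases: the effective length of *ND3*, an entry of 336 bases, was 186 bases in total RNA and 61.8 in the N2 *alg-1* elution.

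**Figure D1:**
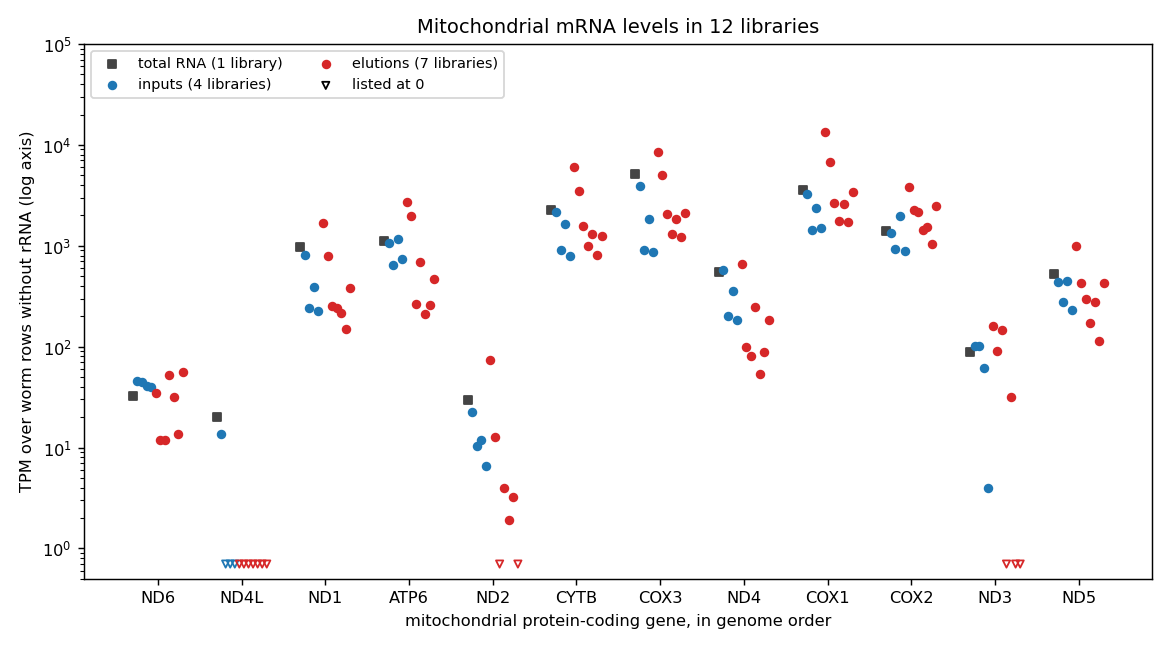
TPM (log axis) of the 12 mitochondrial mRNAs, in genome order, with 1 point per library: total RNA as a black square, the 4 inputs in blue and the 7 elutions in red, and open triangles for libraries in which the gene is listed at 0. *COX1*, *COX2*, *COX3* and *CYTB* lie at the top, with *COX1* reaching 13264 TPM in the PAR-XL elution, and *ND2* lies far below *ND1*.

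None of the 22 mitochondrial transfer RNA entries, 52 to 62 bases long, had a count in any of the 12 libraries. The same held for all 615 nuclear transfer RNA genes, which are 64 to 115 bases long. More widely, 0 of the 18702 worm genes shorter than 100 bases had a count in any library, and the shortest gene with a count was 108 bases long in total RNA. These libraries therefore carry no measurement of transfer RNAs, mitochondrial or other, and their zero does not bear on the level of these RNAs in the worm. As all were at 0, none of them could be ranked or named for its level.

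In sum, the 12 mRNAs held 15750 TPM in total RNA (95% CI 15687 to 15812) and 13744 in the PAR-XL input (95% CI 13698 to 13791). The cXL inputs had 5686 TPM in BS1080, 10282 in DG3913 and 5486 in N2. The elutions had 37942 TPM with PAR-XL, 21017 with PFA-XL, 9505 and 6874 with cXL in BS1080 and DG3913, and 8118, 5416 and 10760 with probes for *gld-1*, *lin-41* or *alg-1* in N2. Both elutions with PAR-XL or PFA-XL were above every other library, and the DG3913 elution was below its input, at 0.669 times its TPM. The N2 *lin-41* elution and its input had overlapping intervals, with a ratio of 0.987 (95% CI 0.947 to 1.03). With the captured transcript left out of the total, the mitochondrial mRNAs were 7.50% of the remaining TPM in the PAR-XL elution against 1.37% in its input, 2.18% against 0.569% with cXL in BS1080, and 1.47% against 1.03% in DG3913. In N2 they were 1.16%, 1.16% and 1.31% of the remaining TPM with probes for *gld-1*, *lin-41* or *alg-1*, against 0.549% in the shared input.

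The nuclear-encoded partners of these proteins behaved differently. A list of 45 nuclear genes for respiratory chain subunits and cytochrome *c* summed to 12536 to 16906 TPM in the total RNA and the inputs, but to 2198 to 3458 TPM in the elutions. Mitochondrial mRNAs amounted to 0.813 of the nuclear ones in the PAR-XL input and to 14.1 times them in the PAR-XL elution. The same quotient was 0.454 in the input and 4.32 in the elution for cXL in BS1080, and 0.652 and 2.01 in DG3913. In N2 it was 0.358 in the input and 3.30, 1.62 and 3.11 after capture of *gld-1*, *lin-41* and *alg-1*. With the captured transcript left out of the total, the nuclear list was 1.69% of TPM in the PAR-XL input and 0.532% in the elution.

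**Figure D2:**
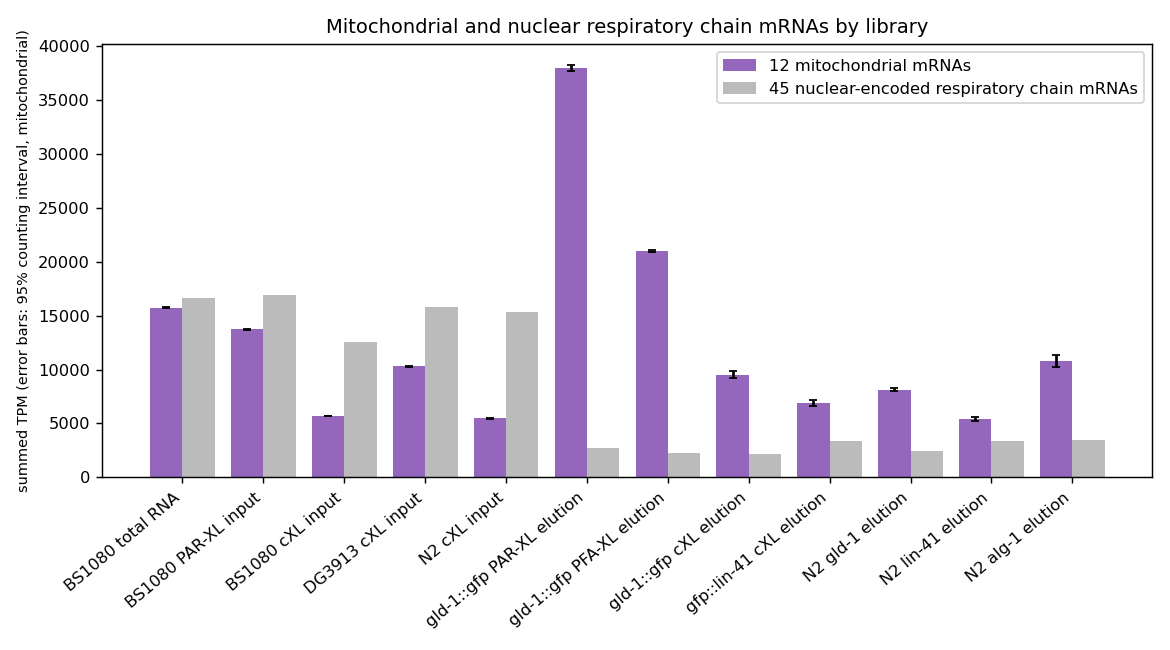
Summed TPM of the 12 mitochondrial mRNAs (purple, with 95% counting intervals) and of 45 nuclear-encoded respiratory chain mRNAs (grey) in each of the 12 libraries. The mitochondrial sum exceeds the nuclear one in all 7 elutions, up to 37942 against 2689 TPM with PAR-XL, and in none of the inputs.

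Total RNA and the PAR-XL input of BS1080 were compared. The worms of the total RNA are labelled as not crosslinked, so extraction, lysis and crosslinking cannot be told apart in this pair. The median relative ratio of the 12 mRNAs was 1.14, and 0 of the 12 stood 2-fold above the median gene, where 3.43% of 15953 genes tested did, or 2-fold below it, where 6.23% did. Relative ratios ran from 0.848 for *ND4L*, on 16 and 30 counts, to 1.77 for *ND6*. Without correction for length, as CPM (the share of counts), *ND4L* was at 0.433 and so 2-fold below, and *ND3* went from 1.44 to 0.982. *COX1* had a relative ratio of 1.12 (95% CI 1.11 to 1.13) and *COX3* of 0.950 (95% CI 0.940 to 0.961). The 45 nuclear respiratory genes, all tested, had a median relative ratio of 1.26, and 0 of them were called.

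Between the cXL and the PAR-XL input of BS1080 most mitochondrial mRNAs stood lower in the cXL input. Their median relative ratio was 0.604, with 10 of 12 below the median gene. *COX3* was at 0.301 (95% CI 0.295 to 0.308), *ND1* at 0.394 (95% CI 0.379 to 0.410) and *ND4* at 0.465 (95% CI 0.450 to 0.481). *ND4L* had 0 counts in the cXL input, which puts it at least 2.04-fold below the median gene at the limit of 3 counts. These 4 of 12 were the members 2-fold below, a share to be read against 22.3% of the 14518 genes tested, and 0 of 12 were 2-fold above, against 8.54%. Among the 11 members tested, 3 stood 2-fold below. *ND3* and *ND6* stood above the median gene, at 1.31 (95% CI 1.07 to 1.59) and 1.29 (95% CI 1.05 to 1.58). Without correction for length, however, *ND3* was at 0.827 and *ND6* at the median gene, 1.00. *COX2* and *ATP6* were at 0.903 and 0.806, so the mRNAs did not shift together, and *COX3* went from 3946 to 899 TPM while *COX2* went from 1349 to 921. The 45 nuclear respiratory genes had a median relative ratio of 0.958, with 3 above and 2 below by 2-fold.

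Tissue markers also differed between these inputs. The median relative ratio was 4.35 for 4 intestine markers, 2.37 for 4 germline markers, 1.13 for 4 body wall muscle markers and 0.167 for 3 hypodermis markers. Only 2 of the 4 intestine markers stood 2-fold above the median gene, so their median does not describe all 4. Of the 4 germline markers 3 stood 2-fold above, where 8.54% of genes tested did. All 3 hypodermis markers stood 2-fold below, where 22.3% of genes tested did, and no muscle marker was called. All 15 markers had counts in both inputs. Their summed TPM in the PAR-XL and the cXL input was 6936 and 13878 for the intestine, 801 and 1468 for the germline, 2429 and 1978 for muscle and 45.2 and 6.28 for the hypodermis. Their part in the mitochondrial levels was not tested.

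Among the cXL inputs, those of BS1080 and N2 had similar levels of most mitochondrial mRNAs. Over 11 mRNAs the median relative ratio was 1.08, as *ND4L* had no count in either. *COX1* was at 0.952 (95% CI 0.936 to 0.967) and *ATP6* at 0.873 (95% CI 0.831 to 0.917). *ND2* stood higher, at 1.60 on 125 and 44 counts, but was not called. *ND3* was called, at 25.5 (95% CI 8.12 to 80.0) on 135 and 3 counts, the only 1 of 12 to stand 2-fold above, against 4.41% of genes tested, and 0 of 12 stood 2-fold below, against 1.5%. *ND3* in the N2 input was thus 3.94 TPM, while its neighbour *ND5* had 3457 counts there.

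The DG3913 input stood above that of N2 for most members. Their median relative ratio was 1.44, and before division by the median ratio of all genes, 1.33, the median TPM ratio was 1.91. *COX2* was at 1.70 (95% CI 1.64 to 1.76), *COX3* at 1.59 (95% CI 1.54 to 1.65), *CYTB* at 1.54 (95% CI 1.5 to 1.58) and *COX1* at 1.17 (95% CI 1.15 to 1.19). *ND6* had the lowest value, 0.755 (95% CI 0.542 to 1.05). *ND3* was again the only 1 of 12 called above, at 11.7 (95% CI 3.67 to 37.4) on 57 and 3 counts, against 6.44% of genes tested, and 0 were called below, against 2.41%. Both strain comparisons share the N2 input. The nuclear respiratory genes had a median relative ratio of 0.750 over 43 genes tested, with 0 called. Marker medians were 0.635 for the germline, 0.551 for muscle and 0.704 for the intestine, and their part was not tested.

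**Figure D3:**
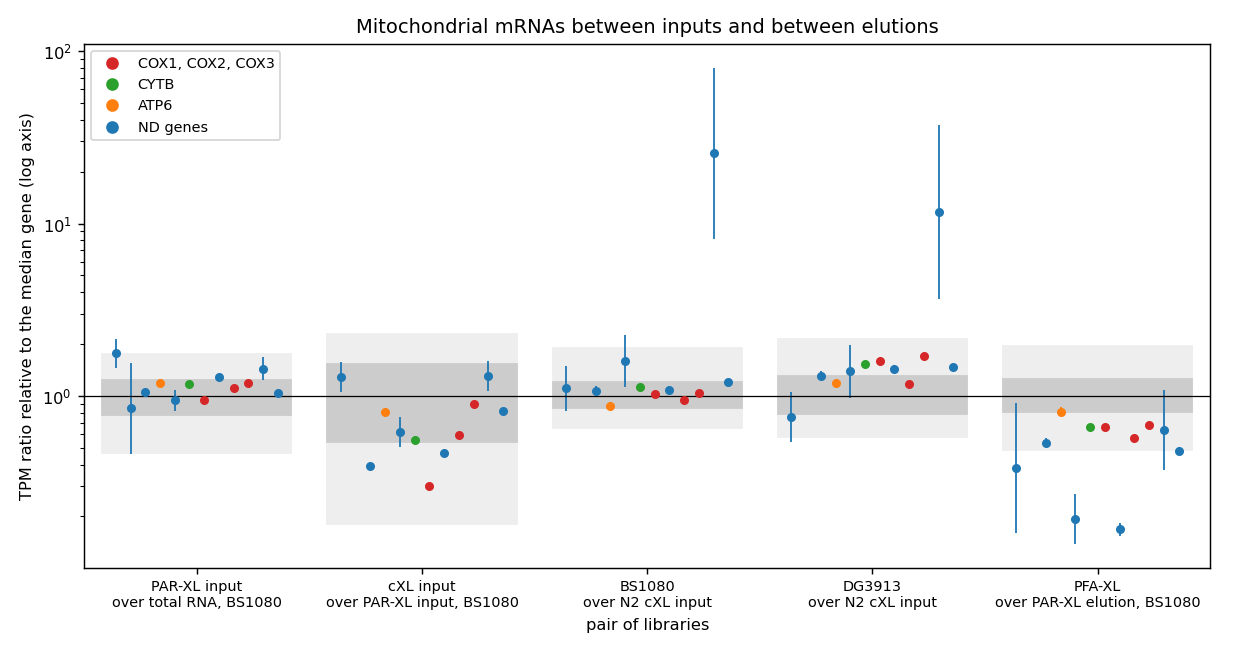
Relative ratio (log axis) of each mitochondrial mRNA between pairs of inputs and between the PFA-XL and PAR-XL elutions, with 95% counting intervals. Grey boxes hold the middle 50% (dark) and 90% (light) of all genes tested, the line at 1 is the median gene, and members at 0 counts are not drawn. *COX3* at 0.301 is the lowest drawn point between the cXL and PAR-XL inputs, and *ND4* at 0.169 the lowest between the elutions.

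Each pulldown was then compared with its input. In the PAR-XL pulldown of *gld-1::gfp*, where input and elution are from separate pulldowns, the median relative ratio of the 12 members was 4.95. *COX1* had 3231 TPM in the input and 13264 in the elution, a relative ratio of 9.17 (95% CI 9.06 to 9.29), higher than 99.3% of genes tested. *ND2* had 22.4 and 73.7 TPM and was at 7.37 (95% CI 5.77 to 9.41). *COX2*, *CYTB*, *ATP6*, *ND5*, *COX3* and *ND1* lay between 4.56 and 6.27, *ND3* at 3.48 (95% CI 2.17 to 5.59) and *ND4* at 2.57 (95% CI 2.42 to 2.73).

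These 10 of 12 stood 2-fold above the median gene, where 21.3% of 8077 genes tested did. *ND6* had 8 counts in the elution and a relative ratio of 1.71 (95% CI 0.846 to 3.45). *ND4L* had 0 counts, which at the limit of 3 counts allows 48.4 TPM, more than its 13.7 TPM in the input. No member with counts stood 2-fold below, against 27.4% of genes tested.

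In the cXL pulldown of *gld-1::gfp* the members divided. *COX2* went from 921 to 2157 TPM with a relative ratio of 6.23 (95% CI 5.66 to 6.87), *COX3* from 899 to 2058 TPM with 6.09 (95% CI 5.55 to 6.68), and *COX1* from 1444 to 2649 TPM with 4.88 (95% CI 4.64 to 5.13). *CYTB* was at 4.66 (95% CI 4.30 to 5.05), *ND5* at 2.85 (95% CI 2.45 to 3.31) and *ND1* at 2.76 (95% CI 2.18 to 3.50). *ATP6*, by contrast, went from 642 to 267 TPM and stood at the median gene, with 1.11 (95% CI 0.817 to 1.5), and so did *ND4*, with 1.08 (95% CI 0.781 to 1.48). The intervals of *ATP6* and *ND4* lie below those of *COX1*, *COX2*, *COX3* and *CYTB*.

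With *ND3*, at 3.88 on 6 counts (95% CI 1.71 to 8.80), 7 of 12 members were called above, against 17.0% of 4288 genes tested. *ND3* was not tested, and 6 of the 8 tested members were called above. *ND6* had 1 count, with a relative ratio of 0.712 (95% CI 0.0996 to 5.09), *ND2* had 0 counts in the elution and 125 in the input, and *ND4L* had 0 in both. For *ND2* the limit of 3 counts is 10.8 TPM, above its input level of 10.4 TPM, so no fold is given. The median relative ratio was 2.85, and that of the summed TPM 4.45. No member with counts stood 2-fold below, against 19.3% of genes tested.

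The N2 pulldown with *gld-1* probes, which captures endogenous *gld-1*, gave a similar order. *COX3* went from 873 to 1839 TPM, a relative ratio of 4.87 (95% CI 4.60 to 5.16), *COX2* was at 4.04 (95% CI 3.78 to 4.32), *COX1* at 3.99 (95% CI 3.88 to 4.10) and *CYTB* at 3.79 (95% CI 3.61 to 3.98). *ND5* was at 2.80 (95% CI 2.58 to 3.05) and *ND1* at 2.22 (95% CI 1.93 to 2.56). *ATP6* went from 733 to 209 TPM and was at 0.658 (95% CI 0.545 to 0.794), and *ND4* from 184 to 53.5 TPM at 0.670 (95% CI 0.547 to 0.822), both below the median gene.

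*ND3*, at 18.4 (95% CI 4.12 to 82.2), rested on 4 counts in the elution and 3 in the input. With it, 7 of 12 members were called above, against 19.9% of 7091 genes tested, and 0 below, against 22.9%. *ND3* had too few counts to be tested, and of the 8 tested members 6 were called above. *ND6* was at 1.84 on 8 counts (95% CI 0.879 to 3.84) and *ND2* at 0.680 on 2 counts (95% CI 0.165 to 2.80). Over the members the median relative ratio was 2.80. In this elution the 4 intestine markers summed to 96756 TPM, against 18353 in the input and 1509 to 4661 in the other 6 elutions. A single gene held 95392 TPM of this sum, *vit-6*, which codes for a yolk protein and was picked out after its values were seen, while the 4 had a median relative ratio of 0.495, with 1 called above and 2 below. The part of that RNA in the members' values was not tested.

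With *alg-1* probes, in the library with the fewest worm reads, *COX2* was at 5.77 (95% CI 4.88 to 6.83), *COX3* at 4.97 (95% CI 4.22 to 5.85), *COX1* at 4.65 (95% CI 4.32 to 5.01) and *CYTB* at 3.20 (95% CI 2.74 to 3.73). *ND5* was at 3.84, *ND1* at 3.43 and *ND4* at 2.06, on 90, 33 and 30 counts. *ATP6* had 19 counts and stood at 1.32 (95% CI 0.841 to 2.08). With *ND6*, on 1 count (2.87, 95% CI 0.397 to 20.7), 8 of 12 members were called above, against 20.8% of only 2304 genes tested. *ND6* was not tested here, and 7 of the 8 tested members were called. *ND2*, *ND3* and *ND4L* had no counts, and the limits of 3 counts exceed their input levels. Of the members with counts 0 stood 2-fold below, against 18.4%. Over 11 members, with *ND2* and *ND3* entered at 0, the median was 3.20, but 4.88 where genes needed 100 expected counts in place of 10.

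The *lin-41* pulldowns had the lowest median relative ratios, although not the lowest value for every member. In DG3913, *COX1* went from 2347 to 1757 TPM, a relative ratio of 1.61 (95% CI 1.51 to 1.71). *COX2*, *COX3* and *ND4* were at 1.55, 1.51 and 1.5, *ND1*, *CYTB* and *ATP6* at 1.33, 1.30 and 1.27, and *ND5* at 0.829 (95% CI 0.679 to 1.01). *ND6*, on 3 counts, was at 2.77 (95% CI 0.874 to 8.77) and is the only 1 of 12 called above, but it was not tested. Of the 8 tested members 0 were called above, against 13.4% of 4842 genes tested. *ND2* had 1 count (0.715, 95% CI 0.0997 to 5.12) and *ND3* and *ND4L* had 0. Members had a median relative ratio of 1.33, and no member with counts stood 2-fold below, against 15.7% of genes tested. Here *ATP6* and *ND4* had intervals that overlapped those of *COX2*, *COX3* and *CYTB*, unlike in the BS1080 cXL pulldown, where they were at 1.11 and 1.08 with intervals that overlap those in DG3913.

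In N2 with *lin-41* probes, *COX3* was at 2.56 (95% CI 2.28 to 2.87), *COX2* at 2.15 (95% CI 1.88 to 2.47), *COX1* at 2.1 (95% CI 1.98 to 2.22) and *CYTB* at 1.86 (95% CI 1.67 to 2.06). *ATP6* stood below the median gene at 0.648 (95% CI 0.476 to 0.882). *ND1*, *ND5* and *ND4* were at 1.21, 0.923 and 0.879, each with an interval that includes the median gene. The 3 *COX* genes were the members 2-fold above, 3 of 12 against 19.0% of 4851 genes tested. *ND2* and *ND6* had 1 count each, at 0.907 (95% CI 0.125 to 6.58) and 0.627 (95% CI 0.0869 to 4.52), and *ND3* and *ND4L* had 0. No member with counts stood 2-fold below, against 20.8%. Here the median relative ratio was 0.923 and that of the summed TPM 1.81, so that the side of the median gene depends on the summary. The 3 N2 pulldowns share 1 input, and their values are not independent of each other.

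**Figure D4:**
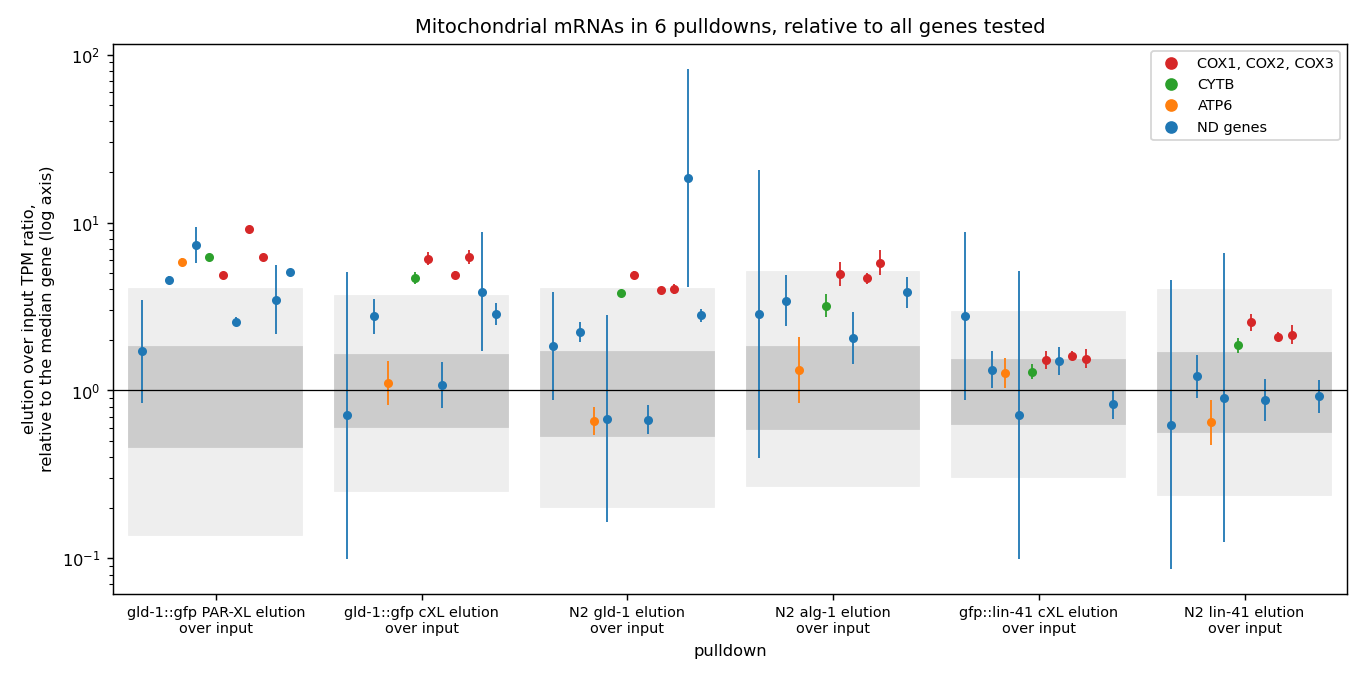
Relative ratio of elution over input (log axis) of each mitochondrial mRNA in 6 pulldowns, with 95% counting intervals. Grey boxes hold the middle 50% (dark) and 90% (light) of all genes tested, the line at 1 is the median gene, and members at 0 counts are not drawn. Genes of complex IV (red) reach 9.17 with PAR-XL and lie between 1.51 and 1.61 in the *gfp::lin-41* pulldown.

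The make-up of the mitochondrial mRNA pool differed between inputs and elutions. The 3 *COX* genes made 64.5% of mitochondrial mRNA TPM in total RNA and 57.4% to 62.0% in the inputs, and 65.3% to 74.3% in the elutions. The 7 *ND* genes made 14% in total RNA, 12.6% to 15.4% in the inputs and 6.83% to 10.4% in the elutions. The ranges of inputs and elutions do not overlap for either. *CYTB* kept 14.5% to 15.9% in total RNA and inputs and 11.6% to 16.8% in elutions. *ATP6* made 11.3% in the BS1080 cXL input and 2.81% in its elution, and 13.4% in the N2 input and 2.57%, 4.78% and 4.38% after capture of *gld-1*, *lin-41* and *alg-1*, but 7.68% and 7.23% in the PAR-XL pair and 11.2% and 9.94% in the DG3913 pair.

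The PFA-XL and PAR-XL elutions of *gld-1::gfp* were compared with each other, as no PFA-XL input was sequenced. PFA-XL lysates were also sonicated, so crosslinker, sonication and culture cannot be told apart. All 11 members with a ratio stood below the median gene, with a median relative ratio of 0.573. *ND4* went from 656 TPM with PAR-XL to 98.9 with PFA-XL, a relative ratio of 0.169 (95% CI 0.155 to 0.184), lower than all but 0.785% of 5991 genes tested. *ND2* went from 73.7 to 12.7 TPM, at 0.193 (95% CI 0.139 to 0.269). *ND6* was at 0.381 on 14 and 8 counts (95% CI 0.160 to 0.909) and *ND5* at 0.479 (95% CI 0.455 to 0.503).

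These 4 of 12 stood 2-fold below, against 5.37% of genes tested, and 0 stood 2-fold above, against 4.49%. *ND6* was not tested, which leaves 3 of the 10 tested members below. *ND1*, *COX1*, *ND3*, *CYTB*, *COX3* and *COX2* were between 0.537 and 0.675, and *ATP6* was the highest at 0.810 (95% CI 0.764 to 0.859). *ND4* had 1166 counts in the PAR-XL elution and 897 in the PFA-XL elution, although the latter held 18010675 counts of worm RNA without ribosomal RNA and the former 3250993. The nuclear respiratory genes had a median relative ratio of 0.973 over 40 genes tested, with 0 called. The marker medians were 0.785 for the germline, 1.36 for muscle and 1.65 for the intestine, and their part was not tested. Both elutions are from BS1080 worms and were depleted of ribosomal RNA with the same kit.

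Of the nuclear partners, 0 genes of the respiratory list stood 2-fold above the median gene in any of the 6 pulldowns, where 13.4% to 21.3% of all genes tested did. In the PAR-XL pulldown 30 of 44 tested stood 2-fold below, against 27.4% of all genes tested, with a median relative ratio of 0.346. In the cXL pulldowns the counts were 25 of 39 in BS1080, against 19.3% of all genes, and 22 of 41 in DG3913, against 15.7%, with medians of 0.400 and 0.457. In N2 they were 31 of 42 with *gld-1* probes, 26 of 40 with *lin-41* probes and 13 of 27 with *alg-1* probes, against 22.9%, 20.8% and 18.4% of all genes, with medians of 0.354, 0.373 and 0.510. A list of 76 genes for cytosolic ribosomal proteins had medians of 0.222 to 0.370 in the same pulldowns.

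Most of the single nuclear genes named here also stood below the median gene, and *nuo-1* did not in every pulldown. *atp-2*, the beta subunit of the ATP synthase, was at 0.369 (95% CI 0.343 to 0.398) with PAR-XL and between 0.262 and 0.385 in the other 5 pulldowns. *cox-5A*, a complex IV subunit, lay between 0.329 and 0.613, *sdhb-1*, the iron-sulfur subunit of complex II, which has no mitochondrially encoded part, between 0.284 and 0.737, and *isp-1*, the Rieske protein of complex III, between 0.397 and 1.09. *nuo-1*, a NADH-binding subunit of complex I, stood above the median gene in the PAR-XL pulldown, at 1.97 (95% CI 1.78 to 2.18), in the *gld-1::gfp* cXL pulldown, at 1.32 (95% CI 1.03 to 1.68), and in the N2 *gld-1* pulldown, at 1.58 (95% CI 1.42 to 1.74). The medians of the complex I list there were 0.550, 0.376 and 0.589. In the *gfp::lin-41*, N2 *lin-41* and N2 *alg-1* pulldowns *nuo-1* was at 0.822, 1.07 and 0.548.

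Genes that keep and express the mitochondrial genome varied between pulldowns. A list of 5 genes for mitochondrial DNA and RNA maintenance had a median relative ratio of 2.18 with PAR-XL. There 3 were called above and 1 below, against 21.3% and 27.4% of all genes tested. With cXL it was 1.74 over 4 tested in BS1080, with 1 called above and 0 below, against 17.0% and 19.3%. In DG3913 it was 0.943 over 5, with 0 above and 1 below, against 13.4% and 15.7%. In N2 it was 1.71 over 5 with *gld-1* probes, 1.59 over 4 with *lin-41* probes and 3.28 over 2 with *alg-1* probes. Called above were 2, 1 and 1, against 19.9%, 19.0% and 20.8% of all genes tested. Called below were 1, 0 and 0, against 22.9%, 20.8% and 18.4%. A single call in so short a list cannot be told apart from these shares.

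Of these genes, *rpom-1*, the mitochondrial RNA polymerase, was at 2.18 (95% CI 1.75 to 2.72) with PAR-XL. With cXL it was at 2.0 (95% CI 1.24 to 3.23) in BS1080 and 1.81 (95% CI 1.22 to 2.67) in DG3913, on 17 and 26 counts. With *gld-1* probes in N2 it was at 2.92 (95% CI 2.38 to 3.59). With *lin-41* probes it was at 2.70 (95% CI 1.95 to 3.76) and with *alg-1* probes at 5.88 (95% CI 3.87 to 8.92), on 38 and 23 counts. *hmg-5*, which is related to the DNA packaging protein TFAM, was at 2.34 (95% CI 1.69 to 3.23) with PAR-XL and at 2.08 (95% CI 1.45 to 2.98) with *gld-1* probes in N2, and had 0 to 5 counts in the elutions of the other 4 pulldowns. On 5, 4 and 4 of these counts it was at 1.22 (95% CI 0.504 to 2.94) with cXL in BS1080, 0.513 (95% CI 0.192 to 1.37) in DG3913 and 0.654 (95% CI 0.244 to 1.76) with *lin-41* probes, and it had none with *alg-1* probes. *mma-1*, related to the mitochondrial RNA regulator LRPPRC, was at 1.46 (95% CI 1.23 to 1.72) with PAR-XL, at 1.90 in BS1080 with cXL and at 1.71 with *gld-1* probes. In DG3913 it was at 0.943 (95% CI 0.691 to 1.29), with *lin-41* probes at 1.31 (95% CI 0.983 to 1.75) and with *alg-1* probes at 0.687 (95% CI 0.327 to 1.44), intervals that include the median gene. The 69 genes for mitochondrial ribosomal proteins were near the median gene, with median relative ratios of 1.06 over 62 tested with PAR-XL, 0.993 over 17 with cXL in BS1080 and 0.903 over 28 in DG3913. In N2 the medians were 0.816 over 62 with *gld-1* probes and 1.33 over 29 with *lin-41* probes, and the only 1 tested with *alg-1* probes was at 0.453.

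Germline and muscle markers also differed in the pulldowns. With PAR-XL the 4 germline markers had a median relative ratio of 3.55, with all 4 called above, against 21.3% of all genes tested, and the 4 body wall muscle markers of 0.343, with all 4 called below, against 27.4%. In BS1080 with cXL the medians were 1.92 and 0.334, and with *gld-1* probes in N2 they were 1.95 and 0.241. In each, 2 of 4 germline markers were called above, against 17.0% and 19.9% of genes tested, and 0 below. All 4 muscle markers were called below in both, against 19.3% and 22.9%. In the *lin-41* pulldowns the medians were 1.66 and 0.555 in DG3913 and 1.23 and 0.387 in N2, and with *alg-1* probes 0.878 and 0.569. Of the 4 germline markers, 2 were called above and 0 below in DG3913, against 13.4% and 15.7% of genes tested. With *lin-41* probes in N2 they split, 2 above and 2 below, against 19.0% and 20.8%, so the median describes neither pair. With *alg-1* probes 0 were above and 2 below, against 20.8% and 18.4%. Muscle markers called below were 2 of 4 in DG3913, 4 of 4 with *lin-41* probes and 1 of 4 with *alg-1* probes, with 0 above. Germline markers had counts in every library, with summed TPM of 721 to 1371 in the elutions and 801 to 1761 in the inputs, and those of muscle were 228 to 629 and 1837 to 2537. Their part in the mitochondrial values was not tested.

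The 2 mitochondrial ribosomal RNAs are named here by their sequence names, as the tables give no other. MTCE.7 (WBGene00014454, MtDNA 898 to 1593) had 75307 TPM in total RNA and MTCE.33 (WBGene00014472, MtDNA 10403 to 11354) had 24861, on the scale on which all other worm RNAs sum to 1000000. Together they took 5.04% of all worm counts in total RNA (95% Wilson CI 5.03% to 5.05%), 1.52% to 4.83% in the inputs and 0.102% to 1.81% in the elutions. Total RNA and inputs had been depleted of worm ribosomal RNA with RNase H, cXL elutions of human ribosomal RNA, and PAR-XL and PFA-XL elutions with a eukaryotic probe mix. Depletion and capture therefore cannot be told apart in these levels.

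Relative to the mRNAs of the same genome, both ribosomal RNAs together stood at 6.36 times the TPM of the 12 mRNAs in total RNA, at 6.49 to 8.01 times in the inputs and at 1.75 to 3.81 times in the elutions. The ranges do not overlap. In the *lin-41* pulldowns both ribosomal RNAs were below the median gene while the *COX* genes were above it: MTCE.7 had a relative ratio of 0.352 (95% CI 0.334 to 0.371) and MTCE.33 of 0.369 (95% CI 0.347 to 0.393) in DG3913, and in N2 they were at 0.757 and 0.359. With PAR-XL they were at 1.80 and 1.98, below all of the 8 mRNAs with over 1000 counts in the elution.

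The 2 ribosomal RNAs also did not keep a fixed proportion. The TPM of MTCE.7 over that of MTCE.33 was 3.03 in total RNA, 3.80 in the PAR-XL input, and 1.59, 2.57 and 1.52 in the cXL inputs of BS1080, DG3913 and N2. In the elutions it was 3.46 with PAR-XL, 2.91 with PFA-XL, 4.50 and 2.45 with cXL in BS1080 and DG3913, and 4.52, 3.21 and 5.55 with probes for *gld-1*, *lin-41* or *alg-1* in N2. In the BS1080 cXL pulldown MTCE.7 stood at 2.82 (95% CI 2.75 to 2.89) and MTCE.33 at the median gene, 0.996 (95% CI 0.954 to 1.04). In DG3913 the proportion of elution and input differed by less than the counting interval of the elution (95% CI 2.26 to 2.66).

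**Figure D5:**
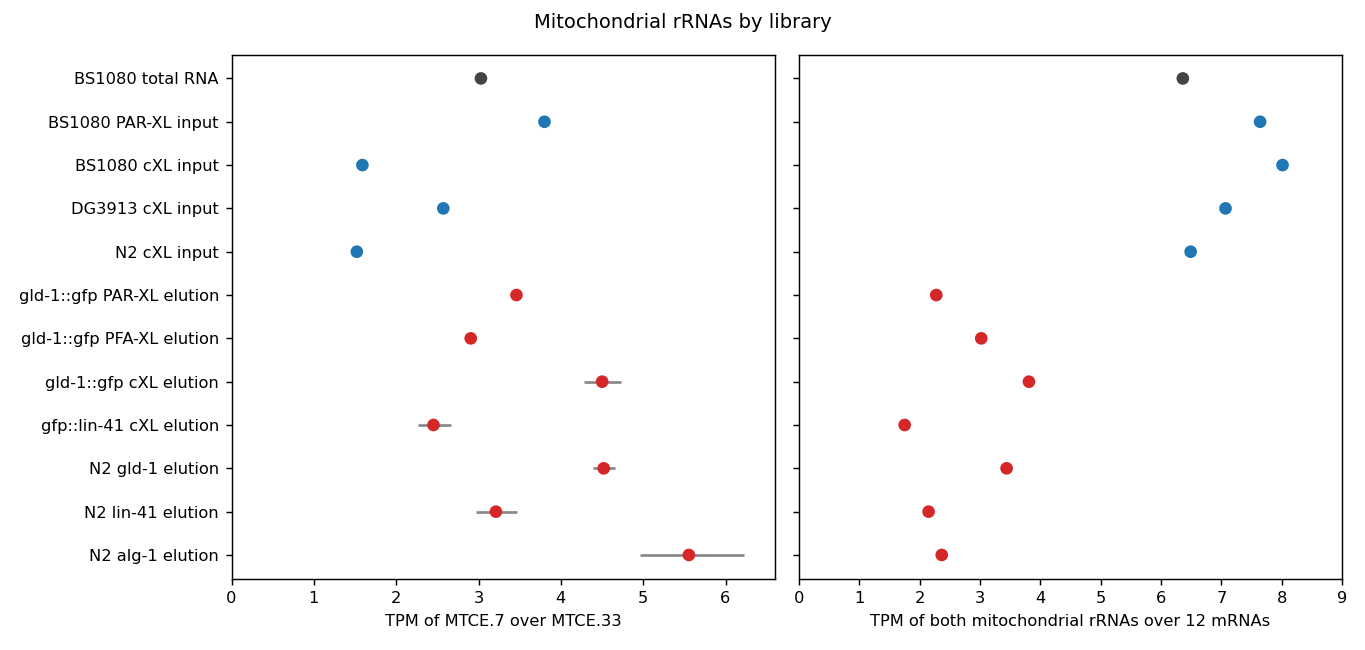
TPM of MTCE.7 over MTCE.33 with 95% counting intervals (left) and TPM of both mitochondrial ribosomal RNAs over that of the 12 mitochondrial mRNAs (right), with 1 point per library for total RNA (black), inputs (blue) and elutions (red). Both axes start at 0, and on the right the elutions, at 1.75 to 3.81, lie below total RNA and the inputs, at 6.36 to 8.01.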

How the data were processed

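RNA sequencing libraries of 1 total RNA, 4 inputs and 7 elutions were analysed, with 1 library per condition, grouped by the titles of the samples. The authors demultiplexed with bcl2fastq, pseudo-aligned single-end reads with kallisto 0.43.1 to worm transcripts (WBcel235, Ensembl release 81), to the transgene and spike-ins where present and, for elutions with added HEK carrier RNA, to human transcripts (GENCODE release 24), and set the fragment length of each library from Bioanalyzer profiles. The authors deposited an estimated count, a TPM value, a length and an effective length for every transcript. Estimated counts are not normalized, and TPM as deposited add up to 1000000 with human, spike-in and ribosomal entries counted in. Whether kallisto was run with a strand setting is not given in the sources used here, so reads of overlapping genes cannot be told apart.

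TPM were rescaled to 1000000 over worm entries without the biotype rRNA and summed per gene, with transgenes apart. Symbols of the 12 mRNAs were taken from RefSeq by coordinates (12 of 12 matched). Genes tested in a pair of libraries were those expected to hold at least 10 estimated counts in each at their mean TPM. The median relative ratio over members includes members of 0 counts in the numerator. Ratios have 95% Poisson intervals on the log scale, shares 95% Wilson intervals, and the limit for 0 counts is 3 counts. Across the 11 comparisons no test between conditions was possible. The ratios, calls and intervals were tested on Poisson counts simulated from the N2 input at the depths of the N2 *lin-41* and *alg-1* elutions. Effective lengths were the same in both simulated libraries, and no error between libraries was added, so the simulation does not bear on such differences. There, 114 unchanged genes among 4585 tested and 55 among 1292 tested were called. Named were the 12 mRNAs, both ribosomal RNAs, 1 nuclear gene for each complex, *rpom-1*, *hmg-5* and *mma-1*. The 3 transfer RNAs with most counts were to be named as well, but all were tied at 0. Lists were described by counts and medians, and the members and lists were chosen with earlier results of these data known. The alternatives were 9 settings for each median and 2 fold thresholds for each count. Sequences were not used here. Tools were pandas 2.3.3, numpy 2.4.6, scipy 1.17.1 and matplotlib 3.10.9 in Python 3.11.15.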

Additional observations from a re-analysis of the deposited data

How the results depend on the processing

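No median relative ratio of the 12 mRNAs moved to the other side of the median gene except that of the N2 *lin-41* pulldown. Many moved beyond a counting interval set around them. The moves were up to 1.53 times in the N2 *alg-1* pulldown with 100 expected counts per gene and up to 2.0 times with the summed TPM. The relative width of this interval was taken from the summed TPM of the 12 mRNAs. It is thus narrower than the interval of any single member. Some values beyond it lie within the interval of the median member. The causes of the moves were not tested. In the order PAR-XL input over total RNA, cXL over PAR-XL input, BS1080 over N2 input, DG3913 over N2 input, the *gld-1::gfp* PAR-XL, *gld-1::gfp* cXL, *gfp::lin-41*, N2 *gld-1*, N2 *lin-41* and N2 *alg-1* pulldowns and PFA-XL over PAR-XL elution, the summed TPM gave 1.08, 0.547, 1.03, 1.41, 6.17, 4.45, 1.44, 3.42, 1.81, 4.03 and 0.621. A minimum of 100 expected counts gave 1.11, 0.474, 1.12, 1.51, 3.66, 3.50, 1.25, 2.48, 1.12, 4.88 and 0.599, and TPM above 1 with at least 10 counts in both libraries gave 1.13, 0.521, 1.10, 1.48, 3.74, 2.22, 1.12, 2.39, 0.758, 2.37 and 0.589. With no filter the PAR-XL input over total RNA was 1.13, cXL over PAR-XL input 0.637, DG3913 over N2 1.42, and the *gld-1::gfp* cXL, N2 *gld-1*, N2 *lin-41* and N2 *alg-1* pulldowns 2.52, 2.70, 0.853 and 2.33, with 0.633 for PFA-XL over PAR-XL. CPM in place of TPM gave 1.08 and 0.619 for the PAR-XL input over total RNA and cXL over PAR-XL input, and 5.25, 3.04, 1.42, 2.95 and 0.992 for the *gld-1::gfp* PAR-XL, *gld-1::gfp* cXL, *gfp::lin-41*, N2 *gld-1* and N2 *lin-41* pulldowns. CPM also called *ND4L* below in the PAR-XL input over total RNA, at 0.433, and *ND6* above in N2 *gld-1*, at 2.05, and put *ND3* below the median gene in the first 2 comparisons, at 0.982 and 0.827. Leaving out the target gave 4.36, 2.63, 1.23, 2.70 and 0.854 for the same 5 pulldowns. Keeping the rRNA entries gave 2.97, 2.94 and 0.973 for *gld-1::gfp* cXL, N2 *gld-1* and N2 *lin-41*, leaving out the 3 overlapping entries gave 4.80 for *gld-1::gfp* PAR-XL, and protein-coding genes alone gave 0.595 for cXL over PAR-XL input. The number of members called in either direction, those at 0 counts in the numerator included, changed with the threshold. At 1.5-fold it was 1, 7, 2 and 4 for the 4 comparisons of inputs and total RNA, 5 for *gfp::lin-41*, 7 for N2 *lin-41* and 9 for PFA-XL over PAR-XL. At 4-fold it was 1 for cXL over PAR-XL input, 5, 1, 3, 1 and 5 for the *gld-1::gfp* cXL, *gfp::lin-41*, N2 *gld-1*, N2 *lin-41* and N2 *alg-1* pulldowns, and 2 for PFA-XL over PAR-XL. The other 49 of 121 values stayed within the interval taken from the summed TPM, or within 1.5 times for counts. Depth limits *ND2*, *ND3*, *ND4L* and *ND6*, which had at most 8 counts in the cXL elutions, and the N2 *alg-1* elution, where 2304 genes could be tested. No paired analysis was possible because each condition has 1 library, and no replicate could be left out.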

Other observations

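The elutions also held mitochondrial mRNAs of the human HEK carrier RNA that was added before extraction. Its 13 human mitochondrial mRNA entries took 0.384% and 0.422% of human counts in the PAR-XL and PFA-XL elutions and 1.18% to 1.29% in the 5 cXL elutions, which were depleted of ribosomal RNA by another method. Worm mitochondrial mRNA counts came to 47.3% and 63.0% of the human ones in the PAR-XL and PFA-XL elutions, and to 3.72%, 2.61%, 18.1%, 2.38% and 1.39% in the elutions of BS1080, DG3913 and N2 with *gld-1*, *lin-41* and *alg-1* probes. Reads that match both species were divided by kallisto, and the error of this division is not known, although all estimated counts of worm mitochondrial entries were whole.

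Complex IV mRNAs had 4.60 times the TPM of complex I mRNAs in total RNA, 3.74 to 4.73 times in the inputs and 6.26 to 10.8 times in the elutions. The value was 9.81 with PFA-XL and 7.14 with PAR-XL. No elution lay within the range of the inputs.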
